A study of Caenorhabditis elegans with 12 samples.

Results

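The strain labelled crh-1 null was set directly against the strain labelled aak-2 o/e, with 3 arrays each, 6 of the 12 arrays in the series. The first carries the crh-1 allele nn3315. The second is AGD383, N2 animals with the transgene uthIs202. In that transgene the promoter Paak-2c drives amino acids 1 to 321 of AAK-2, joined to Tomato and followed by the unc-54 3' untranslated region, with rol-6 as marker. WT (N2), also on 3 arrays, is given as context, and 3 arrays of tax-6 null entered the fit and the filter only. Each array held RNA of 1 pool of 3000 whole Caenorhabditis elegans at L4, the last larval stage, and the pools of a strain were prepared on separate days. No treatment was given beyond genotype, each genotype was 1 strain, and the sources used here do not give the time at which each strain was frozen. The arrays gave log2 levels for 22625 probe sets, of which 13396 reached 4 on at least 3 of the 12 arrays. They represented 10365 genes named by 1 symbol, each by its brightest probe set.

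AMPK is an energy-sensing kinase, and AAK-2 is 1 of its catalytic subunits in the worm. In the pathway named in the series title, AMPK and the phosphatase calcineurin act in opposite ways on CRTC-1, a coactivator of the transcription factor CREB, which crh-1 encodes. By the labels, the comparison therefore sets a strain that lost the transcription factor beside one that overexpresses part of the kinase upstream. CREB activity was not measured in either strain. L4 is a stage of rapid change in the worm: the hermaphrodite germ line makes sperm and then turns to oocytes, and the epidermis builds the adult cuticle. The intestine begins to make yolk near the same moult, and genes for cuticle and moulting run in waves within each larval stage.

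The detected probe set of crh-1 stood at 8.61, 8.43 and 8.81 in crh-1 null and at 6.84, 6.50 and 6.91 in aak-2 o/e, with 7.06, 7.18 and 7.24 in WT. It was therefore higher in the strain named for loss of the gene, by 1.87 ± 0.15 on the log2 scale (SE, n = 3 each, adjusted p = 8.2e-07), and the arrays did not overlap. Another probe set of the gene read 2.12, at the floor, in both strains. For aak-2 the brighter probe set read 8.7, 8.45 and 9.01 in crh-1 null and 8.89, 8.43 and 8.46 in aak-2 o/e, a log2 difference of 0.13 ± 0.19 that did not pass (adjusted p = 0.62). The dimmer aak-2 probe set was higher in crh-1 null, by 0.47 (adjusted p = 0.00845). The sources used here do not give the position of these probes relative to the nn3315 lesion or the AAK-2 fragment, so their levels check neither label. One label field of the aak-2 o/e samples reads aak-2 null, while their titles and strain field describe overexpression. Every direction below is that of the arrays so labelled.

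The 2 strains differed in a large share of the genes measured: 4807 genes passed an adjusted p of 0.05 in limma (46.4%). Of these, 2837 were higher (27.4% of the genes tested) and 1970 lower (19%) in crh-1 null, and the log2 difference had a median of 0.15 over all genes. The rises were more numerous and smaller. At 2-fold or more, 2331 genes passed (22.5%), 920 of them higher and 1411 lower, and at 8-fold or more 62 were higher and 155 lower. The 3 arrays of each strain did not overlap in 6233 genes (60.1%). Against WT, with the same 3 WT arrays used for both, 2132 genes were called in crh-1 null (20.6%) and 3472 in aak-2 o/e (33.5%). Levels are log2 throughout, differences are crh-1 null minus aak-2 o/e, and an SE is that of the fit with 3 arrays of each strain. Where every array of a strain lay below 4, the fold given for a gene is a lower bound, taken against 4. The counts of genes at 2-fold, 4-fold or 8-fold, above and below, use the log2 difference itself. They therefore include dim genes whose lower bound is smaller than the limit.

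**Figure D1:**
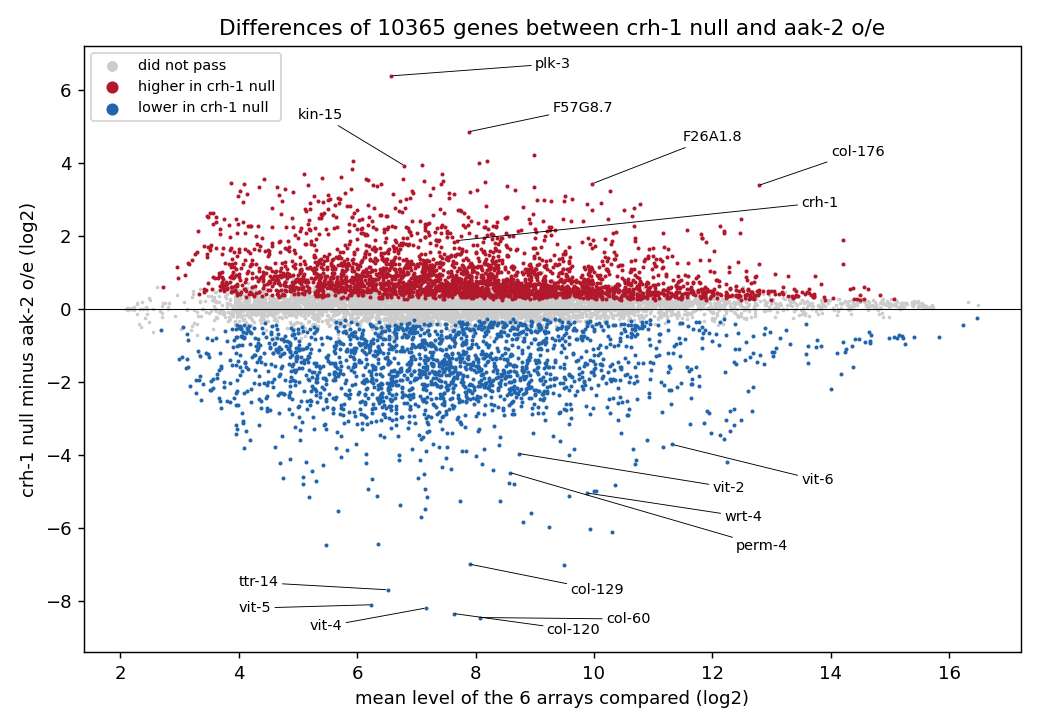
Difference between the strains (crh-1 null minus aak-2 o/e, log2, vertical axis) against the mean log2 level of the 6 arrays (horizontal axis), 1 point per gene for 10365 genes. Red genes passed as higher and blue genes as lower in crh-1 null; the lower side reaches beyond -8 with vit-4, vit-5, col-60 and col-120, while plk-3 leads the higher side.

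Arrays within a strain correlated over the probe sets tested at r = 0.9931 to 0.9942 in crh-1 null, and at 0.9891 to 0.9932 in aak-2 o/e. In tax-6 null, replicate 1 stood apart (0.9738 and 0.9785 with the others). Markers of body wall muscle, pharynx, intestine, epidermis, neurons and germ line were detected in both strains. The 11 markers of adult animals, yolk, eggshell and adult collagen genes, summed to 11.56 to 11.78 in crh-1 null and 15.29 to 15.55 in aak-2 o/e, with 14.19 to 14.45 in WT, all log2. Such a sum adds linear levels, so the brightest member weighs most, and col-63 alone averaged 14.01 in WT. Gene by gene, the median difference of these markers from WT was -0.88 for crh-1 null and 2.31 for aak-2 o/e. Stage within L4 and genotype cannot be told apart here, and the part of stage in any result below was not tested. In whole animals, fewer cells of a type and less RNA per cell cannot be told apart either.

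Each gene list below is described by how many of its tested members passed, next to the shares over all genes (27.4% higher, 19% lower). The calls in the yolk, sperm, and eggshell and oogenesis lists were all lower. The lists of neuronal and synaptic genes and of dauer signalling held higher calls and no lower one, nuclear hormone receptors had 66 higher and 1 lower, and the collagen lists held calls in both directions.

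**Figure D2:**
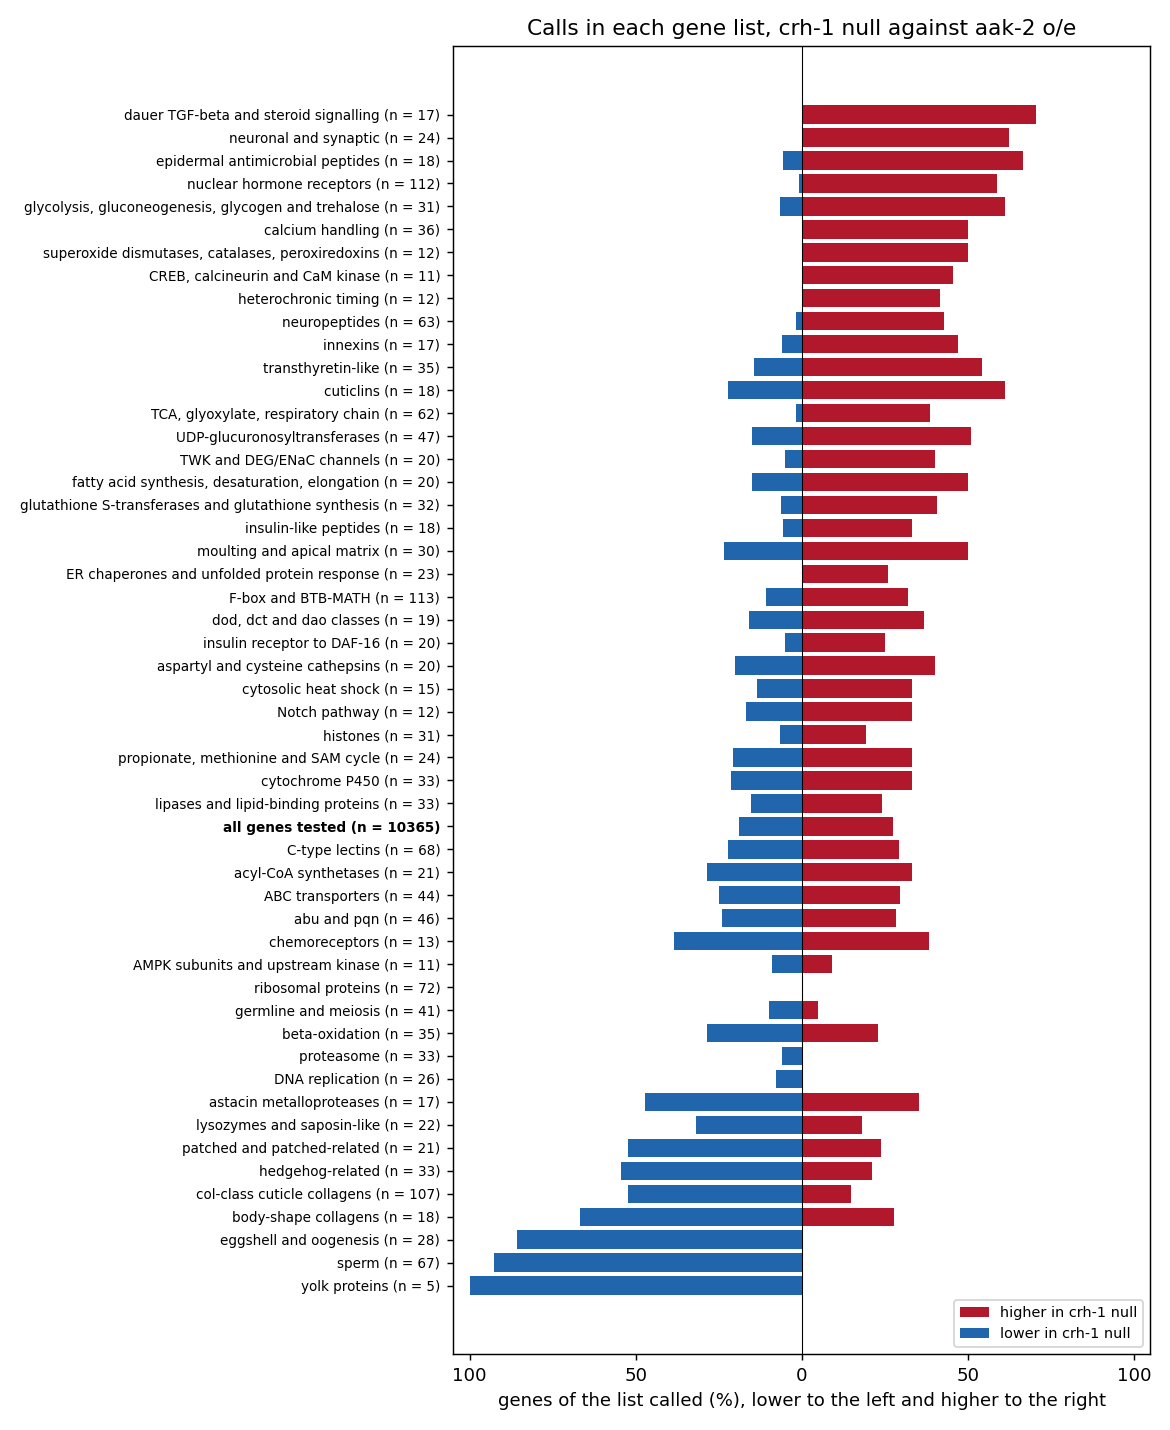
Share of tested members that passed as higher (to the right) or lower (to the left) in crh-1 null than in aak-2 o/e, in percent, for gene lists and for all genes. Yolk, sperm, and eggshell and oogenesis lists extend to the left only, and nuclear hormone receptors and dauer signalling to the right; the number beside each list is its count of genes tested.

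Yolk genes were lower in crh-1 null. All 5 tested vitellogenins, lipoproteins that the intestine secretes and oocytes take up, passed, with a median difference of -3.96. The level of vit-4 was 2.97, 3.11 and 3.11 in crh-1 null and 11.51, 10.77 and 11.49 in aak-2 o/e, with 6.50, 7.70 and 6.79 in WT. All crh-1 null arrays lay below 4, and the gene was at least 153-fold lower there than in aak-2 o/e (adjusted p = 9.95e-08). The 3 strains did not overlap, and WT lay between the others. The level of vit-5 was 2.17, 2.22 and 2.18 in crh-1 null and 10.53, 9.83 and 10.52 in aak-2 o/e, at least 78.4-fold lower. For vit-2 the pattern was another: 6.89, 6.84 and 6.54 in crh-1 null, 11.10, 10.53 and 10.5 in aak-2 o/e, and 7.06, 6.96 and 7.11 in WT. Its difference of -3.96 ± 0.24 thus lay on the aak-2 o/e side, with -0.29 for crh-1 null against WT (adjusted p = 0.501) and 3.67 for aak-2 o/e against WT (adjusted p = 7.46e-07). The vitellogenins are near-identical in part, so a probe set of this family may read more than 1 gene.

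The receptor that brings yolk into oocytes followed the same direction. Levels of rme-2 were 6.07, 6.57 and 6.15 in crh-1 null and 8.75, 8.34 and 8.77 in aak-2 o/e, a difference of -2.35 ± 0.19 (adjusted p = 7.63e-07). Of 28 eggshell and oogenesis genes tested, 24 were lower in crh-1 null and 4 did not pass, with a median of -0.93. The perivitelline layer of the eggshell was represented by perm-4 and perm-2. Levels of perm-4 were 6.33, 6.73 and 5.96 in crh-1 null, 11.17, 10.97 and 10.30 in aak-2 o/e, and 8.19, 8.71 and 8.61 in WT (difference -4.48 ± 0.24). Levels of perm-2 differed by -3.3 ± 0.2. Here crh-1 null lay below WT and aak-2 o/e above it, and no arrays of the 3 strains overlapped. The chitin-binding eggshell proteins cpg-1 and cpg-2 differed by -1.59 and -1.89, and the chitin synthase chs-1 by -0.94. Among RNA regulators of the oocyte and early embryo, puf-3 differed by -1.82 ± 0.14, pos-1 by -1.73 and mex-5 by -0.51, all called. The maturation regulator oma-1 was at -0.07 and did not pass, although oma-2 was lower by -0.62.

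Sperm genes were lower as a body in crh-1 null: 62 of 67 tested members passed as lower and 5 did not pass, with a median of -1.47. The list holds major sperm proteins, the cytoskeletal and signalling proteins that drive the crawling of worm sperm, with sperm-specific phosphatases and spermiogenesis genes. A probe set of the major sperm protein family may read more than 1 gene, so the 62 calls need not be 62 separate measurements. For ssp-16, a small sperm-specific protein, levels were 10.59, 10.60 and 10.35 in crh-1 null and 13.21, 13.23 and 13.51 in aak-2 o/e, with 10.72, 10.74 and 10.78 in WT. The difference was -2.8 ± 0.12 (adjusted p = 1.26e-08), and crh-1 null lay within 0.23 of WT on average (adjusted p = 0.224). The phosphatase gene gsp-3 read 10.36, 10.19 and 9.89 in crh-1 null and 12.24, 12.15 and 12.25 in aak-2 o/e, a difference of -2.07 ± 0.14. Its close relative gsp-4 differed by -2.3 ± 0.16, and the 2 genes may share hybridization. The major sperm protein genes moved less on this scale, msp-3 by -1.1 ± 0.11 and msp-50 by -1.05 ± 0.1, at levels of 13.14 and above on every array. Over the list, the median difference from WT was -0.23 for crh-1 null and 1.16 for aak-2 o/e. The 5 members that did not pass were fer-1, spe-44, spe-5, spe-39 and spe-48, from -0.53 to 0.17. Of these, spe-44 encodes a regulator that acts early in the sperm programme.

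Genes of germ line growth and meiosis did not follow. Of 41 tested, 2 were higher, 4 lower and 35 did not pass, with a median of -0.01, and of 26 DNA replication genes 2 were lower and 24 did not pass. These 2 became 1 without crh-1 null replicate 1 or 2 or aak-2 o/e replicate 3, and 4 without aak-2 o/e replicate 1. The P granule helicases glh-1 and glh-2 were lower by -0.62 ± 0.18 and -0.66 ± 0.2, and the chromosome axis gene htp-3 by -0.41 ± 0.14. The 4 lower calls of the germ line list became 1 without crh-1 null replicate 1 and 7 without tax-6 null replicate 1. Without aak-2 o/e replicate 1, and without replicate 2, there were 2. Markers of the germ line summed to 13.60 to 13.72 in crh-1 null and 13.92 to 14.10 in aak-2 o/e. The polo-like kinase plk-3, one of the 2 higher members, is described with its neighbours below.

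**Figure D3:**
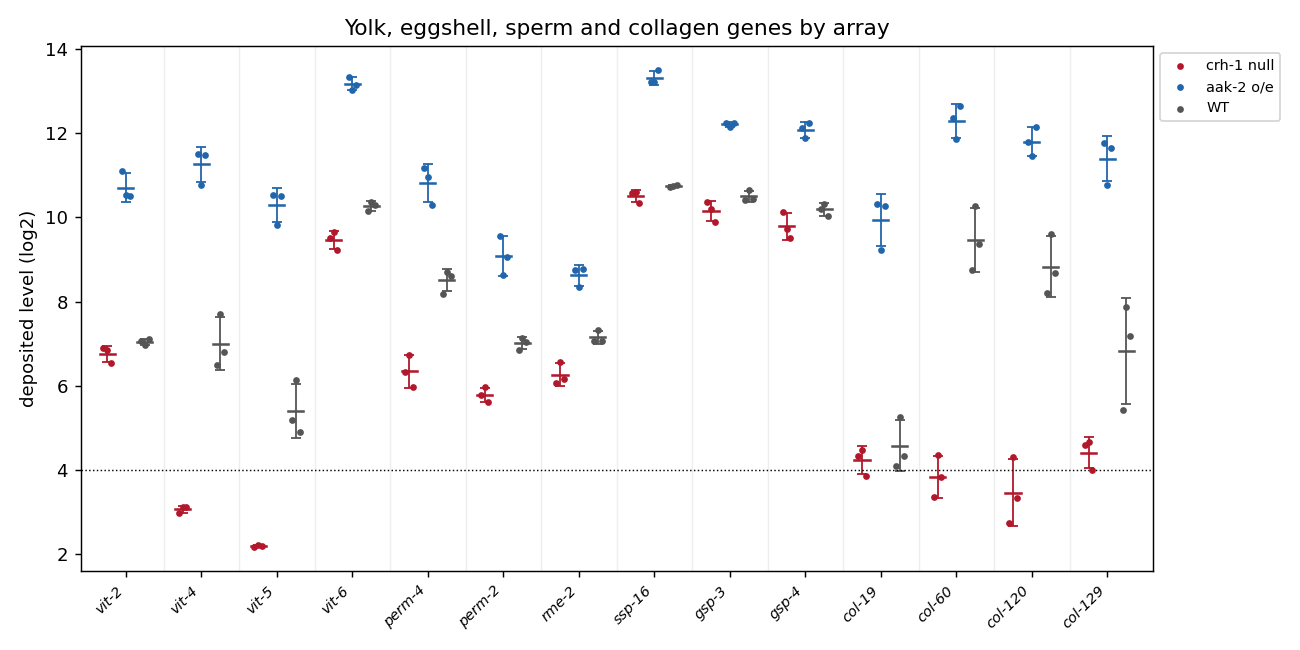
Log2 level on each array (points) with the mean and SD (bars, n = 3) for genes of yolk, eggshell, sperm and cuticle in crh-1 null, aak-2 o/e and WT; the dotted line marks 4. For vit-4, perm-4 and col-60 crh-1 null lies lowest, aak-2 o/e highest and WT between them; for ssp-16 and col-19 crh-1 null lies near WT.

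Cuticle collagens were among the other steep differences. Of 107 col genes tested, 16 were higher, 56 lower and 35 did not pass in crh-1 null, with a median of -0.54. The steepest was col-60, at 3.35, 4.36 and 3.82 in crh-1 null, 12.37, 11.87 and 12.65 in aak-2 o/e, and 8.76, 10.28 and 9.38 in WT. Its difference was -8.45 ± 0.36 (adjusted p = 1.15e-08), and 2 of its 3 crh-1 null values lay below 4. Next came col-120, at 2.74, 4.31 and 3.32 in crh-1 null and 11.79, 11.46 and 12.14 in aak-2 o/e, with a difference of -8.34 ± 0.4. In both genes WT lay between the 2 strains. The same order held for col-129, col-122, col-88, col-106 and col-181, whose differences ran from -6.99 ± 0.5 to -5.59 ± 0.27.

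For col-19, whose transcription is a standard sign of the adult epidermis, crh-1 null and WT were both low. Levels were 4.34, 4.48 and 3.86 in crh-1 null, 10.31, 9.22 and 10.27 in aak-2 o/e, and 4.10, 5.25 and 4.34 in WT. The arrays of these strains overlapped (-0.34, adjusted p = 0.58), and the difference from aak-2 o/e was -5.7 ± 0.33 (adjusted p = 7.64e-08). Another group was low in crh-1 null and near WT in aak-2 o/e. For col-63 the levels were 10.11, 10.29 and 10.05 in crh-1 null, 14.37, 14.32 and 14.31 in aak-2 o/e, and 13.87, 14.12 and 14.06 in WT (difference -4.19 ± 0.13, adjusted p = 3.35e-09). The genes col-77 and col-104 had differences of -3.44 ± 0.12 and -3.05 ± 0.14 in the same pattern, although col-77 also stood 0.54 above WT in aak-2 o/e (adjusted p = 0.00526).

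On the other side, col-176 was among the brightest genes that were higher in crh-1 null. It read 14.45, 14.55 and 14.43 in crh-1 null and 11.29, 11.12 and 10.86 in aak-2 o/e, with 11.92, 11.49 and 11.78 in WT, a difference of 3.38 ± 0.17. Other collagens higher in crh-1 null were col-142 (2.88), col-39 (2.26), col-128 (2.2) and col-98 (2.14).

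Collagens named for body shape held calls in both directions. Of 18 tested, 5 were higher, 12 lower and 1, dpy-17, did not pass. The 5 higher ones were dpy-2, dpy-3, dpy-7, dpy-8 and dpy-9, with differences of 1.31, 1.03, 1.45, 1.27 and 1.46, and all belong to the set required for the circumferential furrows of the cuticle. Another gene of that set, dpy-10, was not analysed here. For dpy-7, levels were 11.79, 11.76 and 11.64 in crh-1 null and 9.97, 10.67 and 10.22 in aak-2 o/e (SE 0.15, adjusted p = 7.66e-06), with 11.47, 11.29 and 11.46 in WT. The lower members included dpy-5 at 13.43, 13.30 and 13.10 in crh-1 null and 15.04, 15.03 and 15.12 in aak-2 o/e, a difference of -1.79 ± 0.11. The collagens sqt-1 and sqt-2, which can turn the body into a roll when mutated, differed by -1.25 ± 0.13 and -1.46 ± 0.11. Their relative rol-6 read 11.98, 11.91 and 11.6 in crh-1 null and 12.70, 13.10 and 12.99 in aak-2 o/e, with 13.16, 13.27 and 13.23 in WT. Its difference of -1.1 ± 0.13 (adjusted p = 2.45e-05) lay on the crh-1 null side, although aak-2 o/e carries rol-6 as marker. The blister collagens bli-1 and bli-2, which build struts of the adult cuticle, differed by -0.59 and -0.75.

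Hedgehog-related proteins of the worm are secreted from epidermis, glia and neurons and many appear in step with the moult, while patched-related proteins resemble their receptor in other animals. Of 33 hedgehog-related genes tested, 7 were higher, 18 lower and 8 did not pass, with a median of -1.01. The warthog gene wrt-4 stood at 7.59, 7.65 and 6.82 in crh-1 null, 12.41, 12.27 and 12.51 in aak-2 o/e, and 11.73, 12.04 and 11.69 in WT, a difference of -5.04 ± 0.19 (adjusted p = 6.26e-09). The groundhog gene grd-2 stood at 5.43, 4.8 and 4.79 in crh-1 null and 8.76, 8.93 and 8.82 in aak-2 o/e, a difference of -3.83 ± 0.18. In both, crh-1 null was far below WT (-4.46 and -4.03), while aak-2 o/e differed from WT by 0.58 (adjusted p = 0.0402) and -0.2 (adjusted p = 0.427). The hedgehog-related genes that were higher in crh-1 null included grd-10 (3.24) and grd-3 (2.46).

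Of 21 patched and patched-related genes, 5 were higher, 11 lower and 5 did not pass, with a median of -0.44. The level of ptr-6 was 3.24, 3.06 and 2.78 in crh-1 null and 7.35, 7.34 and 7.69 in aak-2 o/e, so that the gene was at least 11-fold lower in crh-1 null (adjusted p = 3.87e-08). The level of ptr-8 ran the other way, 8.19, 7.29 and 8.4 in crh-1 null and 4.04, 4.14 and 3.54 in aak-2 o/e, a difference of 4.06 ± 0.31. Both genes lay near WT in aak-2 o/e (-0.04 and -0.19). The same family thus held a steep fall and one of the steepest rises. The patched homologue ptc-3 was lower by -1.67, and ptc-1 did not pass (0.1).

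Genes of moulting and of the apical matrix, the temporary coat under which each new cuticle is laid, also ran both ways. Of 30 tested, 15 were higher, 7 lower and 8 did not pass, with a median of 0.35. The nuclear receptor nhr-23, which is needed for every larval moult, read 9.35, 9.41 and 9.41 in crh-1 null, 7.73, 7.75 and 7.43 in aak-2 o/e, and 8.19, 7.91 and 8.14 in WT. Its difference was 1.75 ± 0.13 (adjusted p = 4.52e-07), and no arrays of the 3 strains overlapped. Of the matrix genes, let-653 read 9.58, 9.56 and 9.63 in crh-1 null and 6.88, 7.16 and 6.28 in aak-2 o/e, a difference of 2.82 ± 0.22. The fibrillin-like gene fbn-1 was higher by 2.45 ± 0.18 and the lipocalin gene lpr-1 by 2.11 ± 0.13. Other higher members were noah-1 (0.88), noah-2 (1.13) and the moulting regulator myrf-1 (1.22). The lower ones were led by mlt-10, at 7.85, 7.67 and 7.02 in crh-1 null and 9.68, 9.74 and 9.67 in aak-2 o/e, a difference of -2.18 ± 0.18 (adjusted p = 1.11e-06). The other lower members included the protease inhibitor bli-5 (-2.0) and the astacin protease nas-36 (-1.0), which acts in shedding the old cuticle.

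Cuticlins, which form ribbons and other insoluble parts of the cuticle, were mostly higher: 11 of 18, with 4 lower and 3 that did not pass. With the filter on dim probe sets at log2 6 in place of 4, the 11 became 6. The level of cutl-6 was 6.62, 6.25 and 6.38 in crh-1 null and below 4 on every aak-2 o/e array, at least 5.35-fold higher. The level of cut-2 was lower by -2.25 ± 0.18. Of 17 astacin proteases, 6 were higher and 8 lower, and the 8 became 5 with that filter. Of 12 heterochronic genes, which set the order of larval stages, 5 were higher and 7 did not pass. The zinc finger gene lin-29, which drives the switch of the epidermis to the adult form, read 7.97, 7.47 and 7.36 in crh-1 null and 6.6, 6.78 and 6.39 in aak-2 o/e (1.01 ± 0.19, adjusted p = 0.00107). Its mean lay 0.1 above WT in crh-1 null and 0.91 below it in aak-2 o/e. The number of higher heterochronic members was 3 without crh-1 null replicate 2 and without aak-2 o/e replicate 2.

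**Figure D4:**
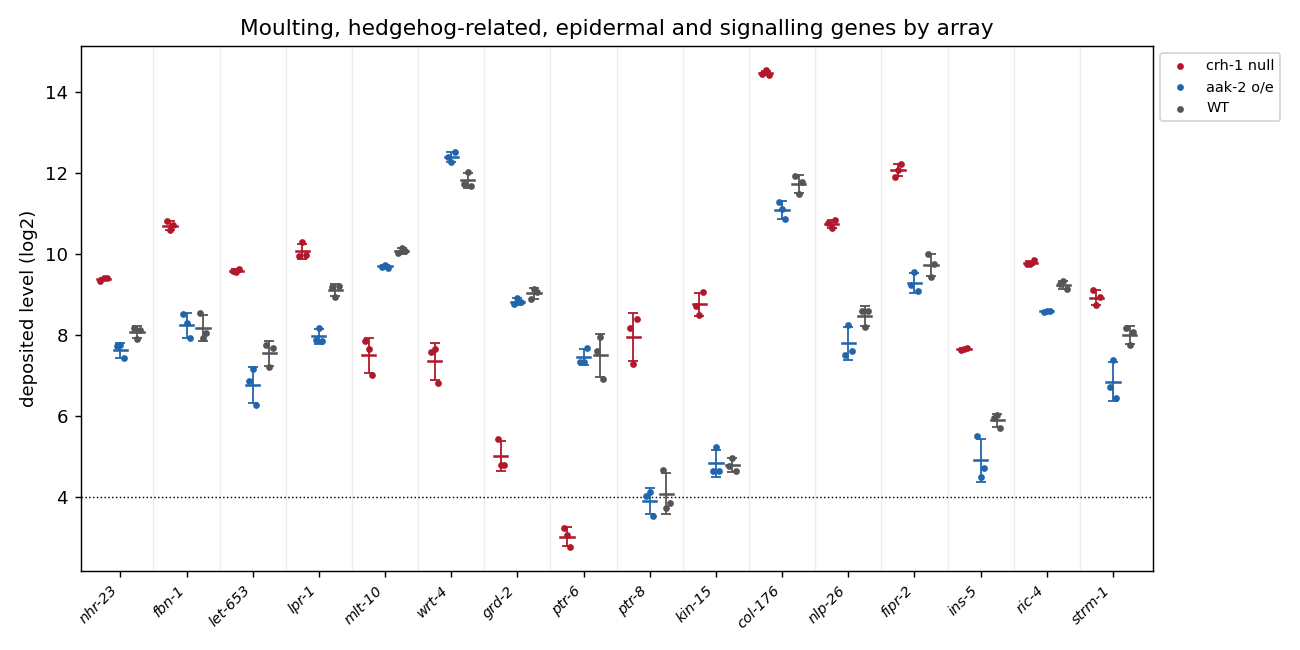
Log2 level on each array (points) with the mean and SD (bars, n = 3) for moulting, hedgehog-related, epidermal and signalling genes in crh-1 null, aak-2 o/e and WT; the dotted line marks 4. Among the 3 strains shown, crh-1 null stands alone at the low end in mlt-10, wrt-4, grd-2 and ptr-6. It stands alone at the high end in fbn-1, ptr-8, kin-15, col-176 and fipr-2. The tax-6 null arrays are not shown.

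Other epidermal genes were prominent among those higher in crh-1 null. The receptor tyrosine kinase genes kin-15 and kin-16 are expressed in the epidermis. The level of kin-15 was 8.71, 8.51 and 9.07 in crh-1 null, 4.65, 5.23 and 4.65 in aak-2 o/e, and 4.77, 4.97 and 4.65 in WT, a difference of 3.92 ± 0.26 (adjusted p = 1.83e-07). The level of kin-16 was 6.64, 6.82 and 7.12 in crh-1 null and below 4 on every aak-2 o/e array, at least 7.26-fold higher. A tyrosinase gene, tyr-1, read 9.09, 8.99 and 9.75 in crh-1 null and 5.51, 5.83 and 5.43 in aak-2 o/e (3.69 ± 0.24). Of 18 antimicrobial peptide genes of the epidermis, 12 were higher, 1 lower and 5 did not pass, with a median of 1.11. The level of nlp-26 was 10.77, 10.65 and 10.85 in crh-1 null and 7.52, 8.25 and 7.62 in aak-2 o/e (2.96 ± 0.24). Those of fipr-2, nlp-27 and cnc-8 differed by 2.77 ± 0.18, 2.24 ± 0.18 and 1.9 ± 0.16. The peptide gene nlp-29, a common reporter of wounding and fungal infection, was higher by 1.94, and nlp-33 was lower by -0.68. Markers of the epidermis as a class summed to 14.07 to 14.38 in crh-1 null and 14.22 to 14.41 in aak-2 o/e, ranges that overlap. Among them, mup-4, which ties epidermis to cuticle, was lower by -2.68 ± 0.25, and elt-6 and tsp-15 were higher by 1.36 ± 0.13 and 1.61 ± 0.17. Another elt-6 probe set differed by 0.26 and did not pass (adjusted p = 0.193).

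Nuclear hormone receptors were higher on a broad front. Of those tested, 66 were higher (58.9%), 1 lower and 45 did not pass, with a median of 0.6. Over the family, the median difference from WT was 0.27 for crh-1 null and -0.29 for aak-2 o/e. The level of nhr-137 was 9.13, 8.92 and 8.98 in crh-1 null, 6.31, 7.08 and 6.78 in aak-2 o/e, and 8.91, 8.90 and 8.66 in WT, a difference of 2.29 ± 0.23 (adjusted p = 5.57e-06) that lay on the aak-2 o/e side. The 66 became 42 when genes had to reach 6 on 3 arrays, which tests fewer members of this dim family. Of 17 genes of dauer TGF-beta and steroid signalling, which decide between reproductive growth and the dauer larva, 12 were higher and 5 did not pass, with a median of 0.62. Here dhs-16 and daf-36 encode enzymes of dafachronic acid synthesis, strm-1 a methyltransferase that opposes it, and daf-12 the receptor. The level of dhs-16 was 7.38, 7.11 and 7.11 in crh-1 null, 4.72, 5.13 and 5.08 in aak-2 o/e, and 6.89, 6.59 and 6.72 in WT, a difference of 2.22 ± 0.13 (adjusted p = 9.39e-08). Those of strm-1, daf-36 and daf-12 differed by 2.08 ± 0.22, 1.14 ± 0.14 and 0.73 ± 0.17, and the receptor-regulated Smad gene daf-14 by 1.08 ± 0.12. The opposing enzymes strm-1 and dhs-16 were thus higher together. The TGF-beta ligand genes daf-7 and dbl-1 did not pass (0.34 and 0.15).

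Pan-neuronal and synaptic genes were mostly higher in crh-1 null, and the few genes of sensory neurons bright enough to be tested held calls in both directions. Of 24 neuronal and synaptic genes, 15 were higher and 9 did not pass, with a median of 0.52. The 11 pan-neuronal markers tested all belong to that list, and 9 of them were higher. The SNAP-25 gene ric-4 read 9.77, 9.76 and 9.85 in crh-1 null and 8.57, 8.61 and 8.59 in aak-2 o/e (1.2 ± 0.11, adjusted p = 2.99e-06), with 9.27, 9.33 and 9.13 in WT. The gene unc-119 was higher by 1.22 ± 0.17, and rab-3, whose protein sits on synaptic vesicles, by 0.88 ± 0.1. Pan-neuronal markers summed to 13.40 to 13.43 in crh-1 null and 12.75 to 12.94 in aak-2 o/e, with 13.19 to 13.24 in WT. In the list of ciliated sensory neurons only 4 of 23 genes on the array were tested. Of these, 3 were higher, among them daf-19 (1.13), a regulator of cilium genes. The other, dyf-7, which anchors sensory dendrites, averaged 5.95 in crh-1 null, 7.42 in aak-2 o/e and 7.39 in WT, a difference of -1.47 ± 0.13 (adjusted p = 1.38e-06). Of 1276 chemoreceptor genes on the array only 13 were tested, with 5 higher and 5 lower. The lower ones were 3 without replicate 2 or 3 of either strain and 3 without a filter on dim probe sets. With the filter at log2 6 there was 1. Pharynx markers were also higher, at 13.70 to 13.82 in crh-1 null and 12.80 to 13 in aak-2 o/e. The part of tissue share in these differences was not tested.

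Of 63 neuropeptide genes, 27 were higher, 1 lower and 35 did not pass, with a median of 0.46. The count of higher members was 46 without tax-6 null replicate 1, an array outside the comparison that enters the estimate of spread. The peptide genes nlp-35, nlp-15 and nlp-16 were higher by 1.03 ± 0.14, 0.91 ± 0.15 and 0.81 ± 0.13. Of 18 insulin-like peptide genes, 6 were higher and 1, ins-37, was lower (-0.98 ± 0.13). The level of ins-5 was 7.63, 7.66 and 7.68 in crh-1 null, 5.51, 4.49 and 4.72 in aak-2 o/e, and 5.95, 6.02 and 5.71 in WT, a difference of 2.75 ± 0.22. Those of ins-35, ins-4 and daf-28 differed by 1.64 ± 0.18, 1.15 ± 0.16 and 0.79. Downstream of the insulin receptor, 5 of 20 genes were higher (25%, near the 27.4% over all genes), 1 lower and 14 did not pass. The kinase gene akt-1 was lower by -0.61 ± 0.15, and the kinase gene sgk-1 higher by 0.56 ± 0.15. A dimmer akt-1 probe set differed by -0.3 and did not pass (adjusted p = 0.176). The transcription factor gene daf-16 did not pass (0.34). Its target sod-3, a mitochondrial superoxide dismutase, read 4.38, 4.38 and 4.36 in crh-1 null and 3.46, 4.07 and 3.92 in aak-2 o/e (0.55 ± 0.15, adjusted p = 0.0114), near the limit of detection. The higher members numbered 2 without crh-1 null replicate 1, without crh-1 null replicate 3 and without aak-2 o/e replicate 3, and 3 without replicate 2 of either strain.

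In the pathway that defines the strains, few AMPK genes passed, and 5 of 11 in the CREB and calcineurin list were higher. Of 11 AMPK genes, aakb-2 was higher (0.48), aakb-1 lower (-0.39) and 9 did not pass, among them the other catalytic subunit aak-1 (-0.03) and the upstream kinase par-4 (0.02). The call of aakb-2 was lost when replicate 2 of either strain was left out. That of aakb-1 was lost when crh-1 null replicate 1 or 2, or aak-2 o/e replicate 1 or 3, was left out. Of 11 genes of CREB, calcineurin and CaM kinase, 5 were higher and 6 did not pass. Beside crh-1 they were crh-2, a second CREB-related gene (0.43), the regulatory subunit of calcineurin cnb-1 (0.46 ± 0.13), the salt-inducible kinase kin-29 (0.66 ± 0.12) and the 14-3-3 gene par-5 (0.29 ± 0.09). For par-5 the other probe sets tested did not pass (0.04 and 0.17, adjusted p = 0.809 and 0.15). The higher members of this list numbered 3 without crh-1 null replicate 3. The catalytic subunit of calcineurin, tax-6, was too dim to be tested. Of 36 genes of calcium handling, 18 were higher and 18 did not pass, led by the sodium-calcium exchanger ncx-8 (at least 4.61-fold higher).

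Among metabolic genes, the lists of carbohydrate and energy metabolism held more higher than lower calls. Glycolysis, gluconeogenesis, glycogen and trehalose genes were higher in 19 of 31, with 2 lower and 10 that did not pass. The trehalose synthase tps-1 read 8.26, 8.33 and 8.54 in crh-1 null and 7.49, 6.89 and 6.41 in aak-2 o/e (1.45 ± 0.23), and the aldolase aldo-1 differed by 0.73 ± 0.12. The 2 lower ones were pck-3 (-2.37 ± 0.19) and pfk-1.2 (-1.81 ± 0.31), paralogues of the gluconeogenic and glycolytic enzymes whose main genes, pck-1 and pfk-1.1, were higher by 0.38 and 0.5. The 19 became 11 without crh-1 null replicate 3 and without aak-2 o/e replicate 3. Of 62 genes of the TCA cycle, glyoxylate cycle and respiratory chain, 24 were higher, 1 lower and 37 did not pass, and the 24 became 15 without crh-1 null replicate 2.

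Fatty acid synthesis was higher in 10 of 20 genes, with 3 lower. The acetyl-CoA carboxylase pod-2, the first committed step, read 8.31, 8.22 and 8.36 in crh-1 null and 7.18, 6.95 and 7.02 in aak-2 o/e (1.25 ± 0.1, adjusted p = 1.03e-06), and fatty acid synthase fasn-1 was higher by 0.94. The desaturase fat-7, which makes oleate, was lower: 5.26, 5.48 and 5.48 in crh-1 null and 7.18, 7.36 and 7.81 in aak-2 o/e, with 6.62, 6.95 and 6.78 in WT (-2.05 ± 0.19). Its close paralogue fat-6 did not pass (0.35). In fat breakdown, the acyl-CoA dehydrogenase acdh-6 was below 4 on every crh-1 null array and at 8.15, 8.43 and 8.75 in aak-2 o/e, at least 21.7-fold lower in crh-1 null, while aak-2 o/e lay 0.03 from WT. The lipase genes lips-3, lips-9 and lips-7 were lower by -5.47 ± 0.36, -4.38 ± 0.2 and -3.99 ± 0.25, whereas lips-10 was higher by 2.42 ± 0.24. The whole beta-oxidation list had 8 higher (22.9%) and 10 lower (28.6%) of 35, against 27.4% and 19% over all genes. The 8 became 5 without crh-1 null replicate 3. The list of lipases and lipid-binding proteins, which holds the lips genes above, had 8 higher (24.2%) and 5 lower (15.2%) of 33, near the shares over all genes.

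In the propionate and methionine list 8 of 24 were higher (33.3%) and 5 lower (20.8%), not far from the shares over all genes (27.4% and 19%). The cystathionine beta-synthase cbs-2 read 6.32, 6.20 and 6.05 in crh-1 null, 9.36, 9.04 and 9.18 in aak-2 o/e, and 6.52, 6.26 and 6.43 in WT, a difference of -3.01 ± 0.13 that lay on the aak-2 o/e side. Its paralogue cbs-1 ran the other way (1.57 ± 0.16). The propionate shunt genes acdh-1 and hphd-1 were lower by -1.09 ± 0.2 and -0.66 ± 0.11. The 8 became 5 without crh-1 null replicate 1 and without aak-2 o/e replicate 3.

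Among detoxification genes, UDP-glucuronosyltransferases (51.1%) and glutathione genes (40.6%) were higher more often than all genes tested (27.4%). Cytochrome P450 genes lay nearer the shares over all genes, with 11 of 33 higher (33.3%) and 7 lower (21.2%). Those counts became 6 and 4 without a filter on dim probe sets. Of 47 UDP-glucuronosyltransferases, which add sugar to foreign and endogenous compounds, 24 were higher and 7 lower, with a median of 0.49. The level of ugt-13 was 10.44, 10.69 and 10.86 in crh-1 null and 7.66, 7.31 and 6.98 in aak-2 o/e (3.35 ± 0.2). Every aak-2 o/e array lay below 4 for ugt-11, at least 4.06-fold higher in crh-1 null. Of 32 glutathione genes 13 were higher and 2 lower, led by gst-41 (2.25 ± 0.23) and gst-24 (1.97 ± 0.14). Of 35 transthyretin-like genes, a nematode family of secreted proteins, 19 were higher and 5 lower. The exception in size was ttr-14, at 3.09, 2.29 and 2.63 in crh-1 null, 10.37, 10.44 and 10.28 in aak-2 o/e, and 8.35, 8.99 and 9.08 in WT, at least 82.3-fold lower in crh-1 null. Its relative ttr-21 read 8.82, 9.06 and 8.97 in crh-1 null and 5.54, 6.05 and 5.31 in aak-2 o/e (3.31 ± 0.19). The gene dos-2, of a family of Notch ligands, was at least 11.8-fold lower in crh-1 null than in aak-2 o/e, although aak-2 o/e itself lay 1.83 below WT (adjusted p = 0.00016).

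The ribosomal protein and proteasome lists gave few calls. In body wall muscle markers and endoplasmic reticulum chaperone genes, the shares higher (31% and 26.1%) lay near that of all genes (27.4%). None of 72 ribosomal protein genes passed in limma, with 5 at an unadjusted p under 0.05, all higher, and their median of 0.12 lay near that of all genes. With a trended robust prior 21 passed as higher, and without a filter on dim probe sets 19 did. Of 33 proteasome genes, 2 were lower and 31 did not pass, and the 2 became 1 without replicate 3 of either strain. Body wall muscle markers were higher in 9 of 29, and unc-54, the main myosin heavy chain of the body wall, by 0.45 ± 0.11. The 9 became 5 without crh-1 null replicate 2, 4 without replicate 3 and 14 without tax-6 null replicate 1. Of 23 chaperone and unfolded protein response genes of the endoplasmic reticulum 6 were higher and 17 did not pass. Among these, hsp-4, the worm BiP that reports its stress, read 12.09, 11.74 and 11.80 in crh-1 null and 12.64, 12.12 and 12.18 in aak-2 o/e, -0.44 ± 0.17 and outside the threshold (adjusted p = 0.0581). Leaving out any single one of 3 arrays brought hsp-4 to an adjusted p of 0.0431, 0.0251 and 0.0455; they were crh-1 null replicate 1, tax-6 null replicate 1 and aak-2 o/e replicate 2.

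The largest rise in crh-1 null relative to aak-2 o/e was that of plk-3, a polo-like kinase gene, and its signal was below 4 on the log2 scale in all 3 aak-2 o/e arrays. Its levels were 9.85, 9.59 and 9.85 in crh-1 null, 3.67, 3.26 and 3.22 in aak-2 o/e, and 10.02, 10.12 and 10.24 in WT. It was at least 54.3-fold higher in crh-1 null (adjusted p = 2.87e-09), which lay 0.36 below WT (adjusted p = 0.23). Its neighbours on chromosome IV in the WBcel235 gene order shared the pattern. F55G1.6 differed by 3.22 and slc-25A18.2 by 2.73, and both were within 0.21 of WT in crh-1 null. A like pair on chromosome II, C16C8.4 and C16C8.5, differed by 3.84 and 3.38, with -0.04 and -0.14 for crh-1 null against WT. On the same chromosome the BTB-MATH genes bath-7 and bath-2, which encode likely substrate adaptors of ubiquitin ligases, also lay next to each other. The level of bath-2 was 7.11, 7.06 and 7.13 in crh-1 null, 4.85, 5.17 and 5.06 in aak-2 o/e, and 7.22, 7.16 and 7.01 in WT (2.07 ± 0.11). The F-box gene fbxa-193 had the same pattern at 6.41, 6.25 and 5.95 in crh-1 null and below 4 on every aak-2 o/e array, at least 4.61-fold higher in crh-1 null.

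Neighbouring genes of this kind were counted by a rule chosen after the data were seen. Consecutive protein-coding genes in the same direction formed a run if each was called and its arrays did not overlap. Each also needed a log2 difference of at least 2 (4-fold, also where the lower bound is smaller). There were 899 such genes, 259 higher and 640 lower in crh-1 null, and 6425 neighbouring pairs had both genes tested. The rule gave 60 runs with 128 genes, 18 runs higher and 42 lower. Among runs of named genes were kin-15 with kin-16, nlp-28 with nlp-27, grd-3 with grd-10 and col-39 with col-80 on the higher side, and perm-4 with perm-2, mlt-10 with lips-7 and pud-3 with pud-4 on the lower side. Many of these neighbours belong to 1 family, whose probes may bind both transcripts.

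**Figure D5:**
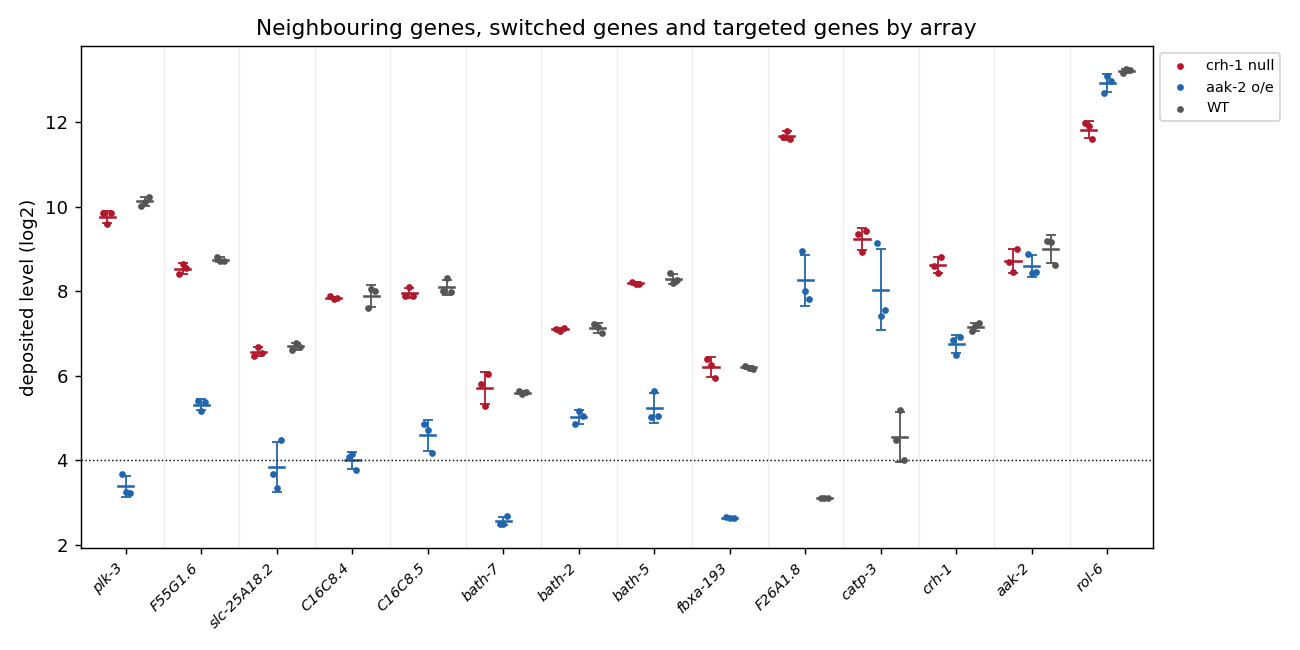
Log2 level on each array (points) with the mean and SD (bars, n = 3) in crh-1 null, aak-2 o/e and WT for genes low in aak-2 o/e with their neighbours, for F26A1.8 and catp-3, and for the targeted and marker genes; the dotted line marks 4. From plk-3 to fbxa-193 aak-2 o/e alone is low, and F26A1.8 is high in both altered strains.

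A different pattern was seen in F26A1.8 and catp-3, which were above WT in both strains. F26A1.8 stood at 11.66, 11.80 and 11.6 in crh-1 null and 8.96, 8.0 and 7.82 in aak-2 o/e, with 3.10 on every WT array, and the strains differed by 3.43 ± 0.23 (adjusted p = 1.89e-07). The ion-pump gene catp-3 read 9.37, 8.94 and 9.43 in crh-1 null, 9.14, 7.41 and 7.56 in aak-2 o/e, and 4.49, 5.18 and 4.0 in WT. In it the strains overlapped, and the difference of 1.21 ± 0.55 did not pass (adjusted p = 0.0974). In aak-2 o/e, replicate 1 lay apart from the others, and without that array the difference was 1.76 (adjusted p = 0.0232), and without tax-6 null replicate 2 the adjusted p was 0.0416. The small peptide genes nspb-6, nspb-10 and nspb-12 also lay above WT in both strains and were higher in crh-1 null than in aak-2 o/e by 3.01 ± 0.24, 2.77 ± 0.22 and 2.51 ± 0.22.

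Among genes known by sequence name only, F57G8.7 read 10.51, 10.22 and 10.18 in crh-1 null and 5.13, 5.92 and 5.33 in aak-2 o/e, with 7.90, 8.25 and 8.0 in WT (4.85 ± 0.25). On the lower side, Y47D7A.15 read 6.39, 5.37 and 6.22 in crh-1 null and 13.20, 12.59 and 13.18 in aak-2 o/e, with 10.16, 11.08 and 10.52 in WT (-7.0 ± 0.28, adjusted p = 9.68e-09). In both genes every WT array lay between those of the 2 strains. That the 2 strains did not overlap was a condition for naming these genes.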

How the data were processed

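Per the labels' protocols, larvae hatched without food, 750 were seeded per plate, worms were frozen in Trizol at L4 at times set for each group's rate of development, and RNA was prepared together 12 hours before the arrays and labelled with the Affymetrix 3' IVT kit. The authors deposited log2 values. Per the submitters' processing notes the tools were GCOS 1.4 and GCRMA, whose version the sources used here do not give. GCRMA corrects background and normalizes between arrays. The deposited values have a floor: 29.8% lay within 0.1 of the lowest, 2.11, which compresses differences of dim genes.

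Control probe sets (77) were left out, and symbols came from the platform annotation, updated through the WBcel235 gene table (20766 probe sets had 1 symbol, 887 several and 895 none listed). The number of arrays limits precision. The fit was limma 3.58.1 in R 4.3.3 (lmFit, eBayes), 1 mean per strain over 12 arrays, two-sided, with Benjamini-Hochberg adjustment over 13396 probe sets, 8 residual and 3.63 prior degrees of freedom. It was tested on simulated data. Of 2057 genes with more than 1 probe set, 4 had probe sets called both ways. Same-numbered arrays did not pair (correlations of deviations -0.11, -0.14 and -0.11).

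Genes were named by rule: the 12 largest differences each way with a class name, the 4 largest with a sequence name, the 4 smallest adjusted p per list with 3 or more calls, and a short list of fixed genes, 246 in all. Other members were named after their values were seen. Members and lists were chosen with earlier results of these data known. The alternatives were other array sets, a replicate block, other normalizations, priors, filters and probe summaries, and leaving out each array.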

Additional observations from a re-analysis of the deposited data

How the results depend on the processing

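The count of 4807 genes stayed within 1.5 times under all 22 alternatives, and so did the counts of genes higher, lower and at least 2-fold apart. It was 4889 with only the 6 arrays compared, 5329 without the tax-6 null arrays, 4861 with quantile normalization, 4641 with median centring, 5487 with array weights, 4869 with a trended robust prior and 4900 with probe sets averaged per gene. Without a filter 4514 of 17118 genes were called, and with a filter at 6 there were 4176 of 8752. Leaving out 1 array gave 4046 to 5484. With the replicate block 4533 genes were called, 4494 of them also without it, and since same-numbered arrays did not deviate together the numbers were not taken as pairs. The share of calls higher in crh-1 null was 59.0%, and 54.9% to 61.6% over the alternatives, and the median difference of all genes was 0.12 with median centring, against 0.15.

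Of 243 named genes that passed, 232 passed under all 22 alternatives. The others, each lost under at least 1, were nos-3, hsp-12.1, unc-22, lin-46, glh-2, smk-1, par-5, trxr-2, htp-3, mec-12 and mlc-1, and the cause was not tested. No named gene that passed changed sign. Most named genes were chosen for large differences or small adjusted p in these same arrays. They would tend to keep their calls, and this says little about other genes. The genes hsp-4 and catp-3 passed under some alternatives only (catp-3 with array weights at 1.56, adjusted p = 0.0213; hsp-4 with median centring, adjusted p = 0.0453). Signal over background limits genes near the floor, where differences are bounds.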

Other observations

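The differences were not spread evenly over the chromosomes. Genes at least 4-fold lower in crh-1 null made up 9.46% of tested genes on chromosome IV, 7.07% on II, 6.47% on I, 4.84% on V and 3.68% on X. Genes at least 4-fold higher made up 4.27% on V and 3.98% on X, and 1.17% on I and 1.13% on III. On X the higher genes (53) outnumbered the lower ones (49), while on IV there were 36 higher and 171 lower. These shares are a description with no test, since genes of 1 family often lie together.

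Several families of secreted and membrane proteins outside reproduction and cuticle held calls in both directions, as did all genes tested (27.4% higher, 19% lower). The shares lay near those of all genes in C-type lectins (29.4% and 22.1%), abu and pqn genes (28.3% and 23.9%) and ABC transporters (29.55% and 25%). Innexins had 47.1% higher and 5.9% lower. Of 68 C-type lectins, secreted sugar-binding proteins, 20 were higher and 15 lower in crh-1 null, and the 20 became 13 with the filter at log2 6. The level of clec-230 was 2.32, 2.44 and 2.56 in crh-1 null, 7.11, 6.84 and 7.22 in aak-2 o/e, and 4.39, 5.51 and 4.46 in WT, at least 8.32-fold lower in crh-1 null. Of 46 abu and pqn genes, 13 were higher and 11 lower, and the 13 became 8 without crh-1 null replicate 3. Here pqn-31 stood at 9.46, 9.83 and 9.68 in crh-1 null and 6.56, 6.53 and 6.11 in aak-2 o/e (3.26 ± 0.2), and abu-12 at 5.63, 5.56 and 5.70 in crh-1 null and 9.51, 9.17 and 9.51 in aak-2 o/e (-3.77 ± 0.15). Of 17 innexins, the gap junction proteins of invertebrates, 8 were higher and 1, inx-11, was lower (-0.73 ± 0.11). The level of inx-3 was 6.28, 6.51 and 6.46 in crh-1 null and 3.98, 4.53 and 3.41 in aak-2 o/e (2.44 ± 0.24). Of 44 ABC transporters, 13 were higher and 11 lower, from pgp-14 (3.04 ± 0.22) to wht-5 (-2.97 ± 0.21).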
